A study of Mus musculus with 42 samples.

Results

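The genes described are 9 genes that mark the globose basal cells of the main olfactory epithelium and the steps from these progenitors to new sensory neurons: Sox2, Lgr5, Kit, Ezh2, Mki67, Top2a, Neurog1, Hes6 and Neurod1. They were chosen by name from a table of 44674 genes, and all 9 passed the filter on low counts, as did 21168 genes in all. The libraries came from adult male C57BL/6NCrl mice of 8 to 12 weeks, exposed for 1 h to no odour (No Odour, 5 pools), to normal chow (NCD, 6 pools), to a bacon-flavoured diet (Bacon, 5 pools) or to a lard-based high-fat diet (HFD, 5 pools). Each of the 21 pools held 4 epithelia and gave an input library of the tissue RNA and a library of the RNA captured with ribosomes through the phosphorylated ribosomal protein S6, called the pulldown. The study made these libraries to find olfactory receptors that food odours activate.

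Olfactory sensory neurons are replaced throughout life. Globose basal cells divide near the base of the epithelium, pass through a stage marked by proneural transcription factors of the basic helix-loop-helix (bHLH) family, and give immature neurons. S6 is phosphorylated after neuronal activity and also under growth signalling through mTOR, so the mark is not particular to neurons.

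Pulldown libraries held 25392651 to 36738192 counts each and input libraries 24839380 to 36781440. The share of ribosomal RNA was not even. It took 19.2% to 28.1% of the counts in the No Odour inputs and 9.38% to 18.9% in the inputs with odour, and 11.6% to 23.1% against 8.12% to 17.5% in the pulldowns. Levels are given as CPM, the counts scaled to library size with TMM factors, which are set so that most genes do not differ between libraries. The 5 markers of mature sensory neurons (Omp, Cnga2, Cnga4, Gnal and Adcy3) summed to 9653 to 12318 CPM in every input. In the pulldowns they summed to 9699 to 11637 CPM without odour and to 12184 to 13202 CPM with NCD, with no overlap. With Bacon the range was 10487 to 12814 CPM and with HFD 10357 to 11926 CPM, both overlapping No Odour. In the markers of horizontal basal cells and of sustentacular supporting cells 1 pulldown stood apart. In Bacon replicate 1 the 4 horizontal basal markers summed to 39.0 CPM, against 6.43 to 24.2 CPM in the other pulldowns, and the 5 sustentacular markers to 2528 CPM, against 985 to 1864 CPM.

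Promoter sequence is shown for the cycling genes Top2a and Mki67, which had the largest differences in ratio between odour and no odour, and for Hes6, which had the smallest. RefSeq promoters were found for 8 of the 9 genes, all but Lgr5. Each line below gives the 250 bases before the annotated start in GRCm38.p6, on the strand of the gene. Capitals mark CCAAT and TTTGAA on either strand in Top2a and Mki67, and CAGCTG, a bHLH site that is its own reverse complement, in Hes6. No marked sites overlap.
Top2a, chr11:99024190-99024439, minus strand: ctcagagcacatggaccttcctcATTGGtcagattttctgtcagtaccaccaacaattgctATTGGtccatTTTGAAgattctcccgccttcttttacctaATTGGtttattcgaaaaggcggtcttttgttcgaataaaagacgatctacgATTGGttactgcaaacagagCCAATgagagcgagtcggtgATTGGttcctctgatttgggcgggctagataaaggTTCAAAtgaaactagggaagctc
Mki67, chr7:135716380-135716629, minus strand: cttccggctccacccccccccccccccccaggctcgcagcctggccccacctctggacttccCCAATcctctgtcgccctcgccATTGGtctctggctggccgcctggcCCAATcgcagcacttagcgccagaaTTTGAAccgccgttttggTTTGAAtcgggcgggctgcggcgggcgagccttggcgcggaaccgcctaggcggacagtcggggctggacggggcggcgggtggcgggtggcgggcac
Hes6, chr1:91414039-91414288, minus strand: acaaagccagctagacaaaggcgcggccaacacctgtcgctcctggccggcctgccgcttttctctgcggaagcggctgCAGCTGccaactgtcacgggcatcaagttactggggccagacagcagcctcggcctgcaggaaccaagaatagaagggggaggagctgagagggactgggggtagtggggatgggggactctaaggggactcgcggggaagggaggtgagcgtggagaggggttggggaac

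CCAAT is bound by the factor NF-Y and TTTGAA is the core of the cell cycle homology region, the element through which G2 and M phase genes are kept silent in resting cells. The Top2a window held 6 CCAAT and 2 TTTGAA sites and the Mki67 window 3 and 2. Among 32851 RefSeq promoters cut to the same window, 0.0578% held at least 6 CCAAT, 2.79% at least 3, and 0.161% held at least 2 of each motif. The Ezh2 window had 3 CCAAT and no TTTGAA, Sox2 and Neurog1 had 1 CCAAT each, and Kit and Neurod1 had none of the 3 motifs. The Hes6 window shown has 1 CAGCTG, where 13.0% of all promoters have at least 1, and a second Hes6 start has 1 CAGCTG and 2 CCAAT. These are matches of letters and were not tested as sites.

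All 9 genes were protein coding. In GRCm38 they lay at chr3:34650405-34652461 (Sox2), chr10:115450311-115587780 (Lgr5), chr5:75574916-75656722 (Kit), chr6:47530139-47595341 (Ezh2), chr7:135689784-135716361 (Mki67), chr11:98992943-99024189 (Top2a), chr13:56250478-56252163 (Neurog1), chr1:91411483-91414038 (Hes6) and chr2:79452521-79456751 (Neurod1). The kits used for amplification and library preparation do not mark strand, so reads of overlapping genes cannot be told apart. This touches Neurod1, which overlaps Cerkl and Gm26755 and has 11.2% of its 31-base words in common with them, Sox2, which lies inside Sox2ot, Top2a, which has 4.80% in common with other genes, and Lgr5 and Ezh2, which each have a gene on the opposite strand. Neurog1, Kit and Hes6 had none in common and overlapped no gene.

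Per kilobase of the longest annotated transcript, the order of input levels put Ezh2 (11.2 ± 0.611 CPM per kb, SD, n = 21), Sox2 (10.5 ± 0.828) and Hes6 (10.3 ± 2.30) at the top, and neighbours among these lay within 1 SD of each other. Neurod1 (7.30 ± 0.680) and Mki67 (6.70 ± 0.924) came next, then Top2a (5.29 ± 0.797) and Neurog1 (5.25 ± 0.609), and the members of each of these pairs also lay within 1 SD. Lgr5 (1.36 ± 0.143) and Kit (1.21 ± 0.150) were the lowest, with ranges that overlapped. In the pulldown the order per kilobase was Hes6 (16.4 ± 3.06), Neurog1 (10.1 ± 1.61), Ezh2 (9.26 ± 0.963), Sox2 (7.14 ± 0.999), Top2a (5.94 ± 0.929), Neurod1 (5.65 ± 0.803), Mki67 (4.35 ± 0.569), Kit (1.13 ± 0.164) and Lgr5 (0.660 ± 0.190). Neighbours within 1 SD of each other in the pulldown were Neurog1 and Ezh2, and Top2a and Neurod1.

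The first comparison asked which of the progenitor transcripts the phospho-S6 pulldown held in excess of the tissue. The neuronal precursor genes Neurog1 and Hes6 were higher in the pulldown than in the input in all 4 odour groups, Lgr5 was lower in all 4, Sox2 was lower in the 3 groups with odour, and Kit passed the test in none. Without odour 3 of the 9 genes were higher and 1 was lower by edgeR's quasi-likelihood test at an adjusted p of 0.001, beside 19.8% higher and 16% lower of all genes tested. With DESeq2 size factors these calls held and Sox2 was also lower (-0.37, adjusted p = 0.000874). With odour the balance was 2 higher and 5 lower in each group, beside 24.4% and 21.6% of all genes for NCD, 22.5% and 18.8% for Bacon, and 22.7% and 20% for HFD. A change in these counts between groups is not a test of odour. In the direct test below, of the 9 genes only Top2a passed. The 7 Bacon calls also held without Bacon replicate 1, where Lgr5 was at -1.03 and Sox2 at -0.77. In a fit of the Bacon libraries alone Lgr5 (-0.90), Sox2 (-0.64), Ezh2 (-0.39) and Neurod1 (-0.41) fell short of the threshold. The share of all genes past the threshold in that fit was not set beside these losses. A gene called lower had less RNA in the pulldown than in the tissue, relative to other genes. This is not read as fewer cells of a type. In the levels of single libraries, which are bulk RNA, fewer such cells and less RNA per cell cannot be told apart.

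**Figure D1:**
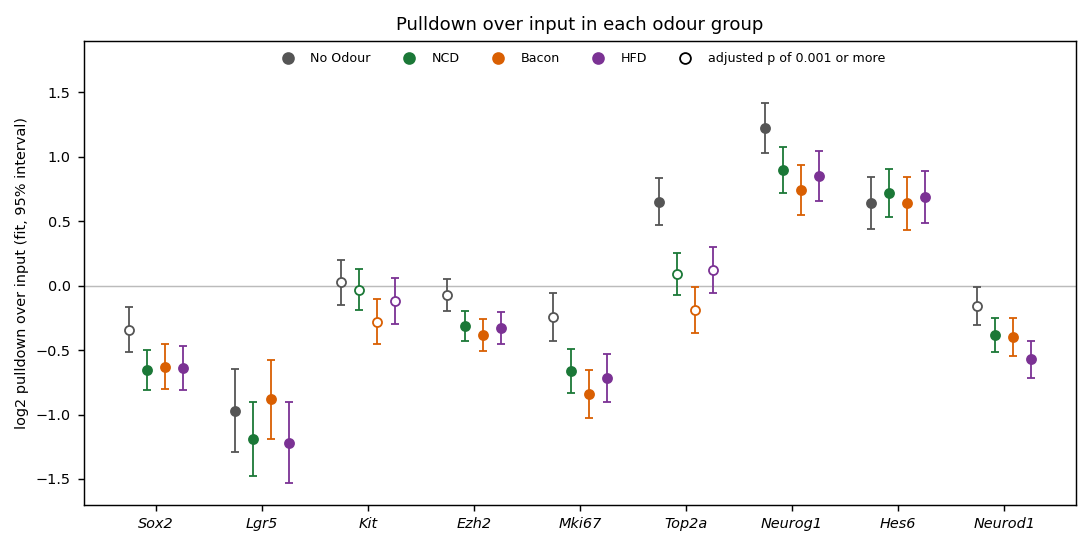
Log2 pulldown over input of each gene from the fit over all 42 libraries, with 95% intervals, in No Odour (grey), NCD (green), Bacon (orange) and HFD (purple); open points have an adjusted p of 0.001 or more. Neurog1 and Hes6 lie above 0 and Lgr5 below 0 in all 4 groups, and Top2a passed the threshold in No Odour and in no group with odour.

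Sox2, a transcription factor of neural progenitors that sustentacular cells also express, was at 18.0, 17.7, 15.8, 16.5 and 18.4 CPM in the No Odour pulldowns and at 23.5, 22.7, 24.7, 19.4 and 19.5 CPM in their inputs. Each pulldown lay below its own input. The log2 difference was -0.34 (SE 0.0878, adjusted p = 0.00168) without odour, short of the threshold, and -0.65, -0.63 and -0.64 with NCD, Bacon and HFD, which passed. The No Odour value passed with DESeq2, with DESeq2 size factors, with either other filter, without the pool term, and without No Odour replicate 6 (-0.40) or Bacon replicate 1 (-0.34).

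Lgr5, a receptor for R-spondins that marks cycling globose basal cells, had the lowest pulldown level of the 9. It was at 2.36, 3.45, 2.17, 3.56 and 3.74 CPM in the No Odour pulldowns against 6.15, 5.03, 6.43, 6.04 and 6.01 CPM in the inputs, with no overlap. The log2 differences were -0.97 (SE 0.164), -1.19 (SE 0.146), -0.88 (SE 0.156) and -1.22 (SE 0.160) in No Odour, NCD, Bacon and HFD. The No Odour call was lost when the ribosomal RNA share entered the fit (-0.90, adjusted p = 0.00103). The Bacon pulldowns were spread, with 5.04 and 5.87 CPM in replicates 1 and 4 and 2.72 to 3.21 CPM in the other 3. With 55 to 179 counts in a pulldown, Lgr5 also had the fewest reads.

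Kit, the receptor of stem cell factor, was at 4.21 to 7.26 CPM in the pulldowns and 5.07 to 7.58 CPM in the inputs. Its log2 differences of 0.03, -0.03, -0.28 and -0.12 had 95% intervals of -0.15 to 0.20, -0.19 to 0.13, -0.45 to -0.11 and -0.30 to 0.06 in the same order, and the Bacon value had an adjusted p of 0.00784. By library totals without TMM factors the Bacon value was -0.43 and passed (adjusted p = 0.000431). Kit is also made by mast cells and melanocytes. None of 6 mast cell markers passed the filter, and none of the 10 markers of the 2 cell types went above 0.522 CPM in a library.

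Ezh2, the catalytic subunit of the Polycomb repressive complex that methylates histones, was close to its input without odour. Its No Odour pulldowns were at 31.2, 29.0, 31.2, 27.8 and 28.7 CPM and its inputs at 33.1, 28.5, 31.3, 32.1 and 30.8 CPM, a log2 difference of -0.07 (95% interval -0.20 to 0.05). It was lower in the pulldown with NCD, Bacon and HFD, with log2 differences of -0.31, -0.38 and -0.33. When the ribosomal RNA share entered the fit, the calls for NCD (-0.29, adjusted p = 0.00107) and HFD (-0.30, adjusted p = 0.00232) were lost. The HFD call was also lost without HFD replicate 2 (-0.28) and in a fit of the HFD libraries alone (-0.32, adjusted p = 0.00195). Of its 9 listed Polycomb partners, 3 were higher and 2 lower in the No Odour pulldown, with a median of 0.11 beside 0.01 over all genes. Jarid2, a DNA-binding cofactor of the complex, was the furthest from the input (1.29), Eed, a core subunit, was higher (0.56), and Ezh1, the second catalytic subunit, was lower (-0.39).

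Mki67 and Top2a, both made by dividing cells, lay on different sides of the input without odour, though the value of Mki67 did not pass. Mki67, a nuclear protein used to mark proliferation, was at 41.7, 49.2, 44.6, 47.0 and 55.5 CPM in the No Odour pulldowns and at 61.3, 59.7, 61.4, 39.4 and 62.7 CPM in the inputs. The replicate 4 input, at 39.4 CPM, was far below the other 4 and was the only one under its own pulldown. The log2 difference was -0.24 (adjusted p = 0.0303) without odour, and -0.38 (adjusted p = 0.000861) without that pool, while NCD, Bacon and HFD gave -0.66, -0.84 and -0.71.

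Top2a, the topoisomerase that untangles chromosomes before division, was at 37.5, 36.7, 39.7, 37.5 and 37.5 CPM in the No Odour pulldowns. The inputs were at 26.3, 25.7, 24.6, 16.5 and 28.7 CPM, below every pulldown. The log2 difference of 0.65 (SE 0.0927, adjusted p = 1.25e-06) was 0.52 without replicate 4, whose input of 16.5 CPM was the lowest. With odour Top2a did not pass, at 0.09 for NCD, -0.19 for Bacon and 0.12 for HFD.

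The other cell cycle genes came from 2 lists. Counts of every list without odour stand beside 19.8% higher and 16% lower of all genes tested. Of 15 S phase genes, 11 were higher and 1 lower in the No Odour pulldown, with a median of 0.82 and with Uhrf1, which keeps DNA methylation through replication (1.50), and the replication helicase subunits Mcm6 (1.21) and Mcm3 (1.28) leading by p. Of 18 genes of G2 and M phase, 6 were higher and none lower, with a median of 0.33, led by Tpx2 (0.83), Bub1b (0.81) and Cdc20 (0.92), which build the spindle or watch over it.

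Neurog1, the proneural bHLH factor of the immediate neuronal precursors, had the largest excess in the pulldown among the 9. It was at 20.9, 20.1, 20.1, 22.8 and 19.1 CPM in the No Odour pulldowns against 9.32, 9.12, 8.62, 7.75 and 9.32 CPM in the inputs. The Bacon pulldowns were at 10.5, 16.7, 15.3, 13.7 and 14.8 CPM and the HFD pulldowns at 16.7, 16.7, 18.5, 15.9 and 16.8 CPM, while the NCD pulldowns ran from 14.2 to 17.5 CPM with a median of 16.5 CPM. All pulldowns except Bacon replicate 1, at 10.5 CPM, were above the highest of the 21 inputs, at 10.8 CPM. The log2 differences were 1.22 (SE 0.0998), 0.90 (SE 0.0906), 0.74 (SE 0.0997) and 0.85 (SE 0.0987) in No Odour, NCD, Bacon and HFD.

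Hes6, which favours neuronal differentiation against the Notch effector Hes1, was higher in the pulldown by 0.64, 0.72, 0.64 and 0.69 in the same order. In No Odour it was at 32.9, 37.5, 33.2, 31.4 and 27.6 CPM in the pulldown and 19.8, 20.9, 20.4, 25.7 and 17.7 CPM in the input. Neurod1, the bHLH factor of late precursors and new neurons, lay below its input. Its No Odour pulldowns were at 18.0 to 19.3 CPM and its inputs at 18.7 to 23.5 CPM (log2 difference -0.16, adjusted p = 0.0709), and it was lower with NCD (-0.38), Bacon (-0.40) and HFD (-0.57). The Bacon value lost the call without Bacon replicate 3 (-0.33).

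Among 16 other regulators of the lineage that were tested, 8 were higher and 4 lower in the No Odour pulldown, with a median of 0.34. Lhx2, a homeodomain factor of the neuronal lineage (1.40), and Tead2, a Hippo pathway factor (1.46), led by p. Hes1, a Notch effector named here after its value was seen, was lower (-1.06). It is also counted among the sustentacular markers used in this report. Of 9 genes around Kit and Lgr5, 1 was higher and 3 lower, with Kitl, the ligand of Kit (-1.16), Fzd7, a Wnt receptor (-0.57), and Rnf43, which removes Wnt receptors (0.68), leading by p.

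Markers of the surrounding cells gave a scale for these values in the same No Odour comparison. All 5 sustentacular markers and 3 of 4 horizontal basal markers were lower, with medians of -1.83 and -2.15, as were 4 of 4 fibroblast and 3 of 4 ensheathing glia markers. Of 4 immature neuron markers 3 were higher, with a median of 0.50, and all 6 erythroid (2.07) and all 4 macrophage markers (1.11) were higher. The 8 markers of neutrophils and their precursors summed to 166 to 206 CPM in the No Odour pulldowns and to 70.3 to 105 CPM in the inputs. Which cells gave the cell cycle transcripts was not tested. Base composition moved with the same measure. Over 20951 genes with a sequence, the log2 pulldown over input without odour was correlated with the GC content of the longest transcript (Spearman's rho 0.350 across genes, which are not independent), with medians of -0.33 in the 25% of genes with the lowest and 0.30 in the 25% with the highest GC content. Hes6 (61.7%) and Neurog1 (58.0%) had the highest GC content of the 9, and the other 7 ran from 43.4% to 50.5%. The part of GC content in these results was not tested.

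The second comparison asked whether 1 h of food odour changed the pulldown over the input. Against No Odour, the ratio of Top2a fell, and that of the other 8 genes did not pass the test. For the mean of the 3 odours, 1 of 9 genes passed, beside 5.47% of all genes tested. For Bacon it was also 1 of 9, beside 3.78%, and for NCD and HFD it was none, beside 0.524% and 1.22%. At an unadjusted p under 0.05 the NCD comparison had 6 and the HFD comparison 6 of the 9 genes. The share of all genes at that level was not counted, so these counts are not read as a result about the 9 genes. The 3 odours share their No Odour pools, and their values are given side by side only.

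**Figure D2:**
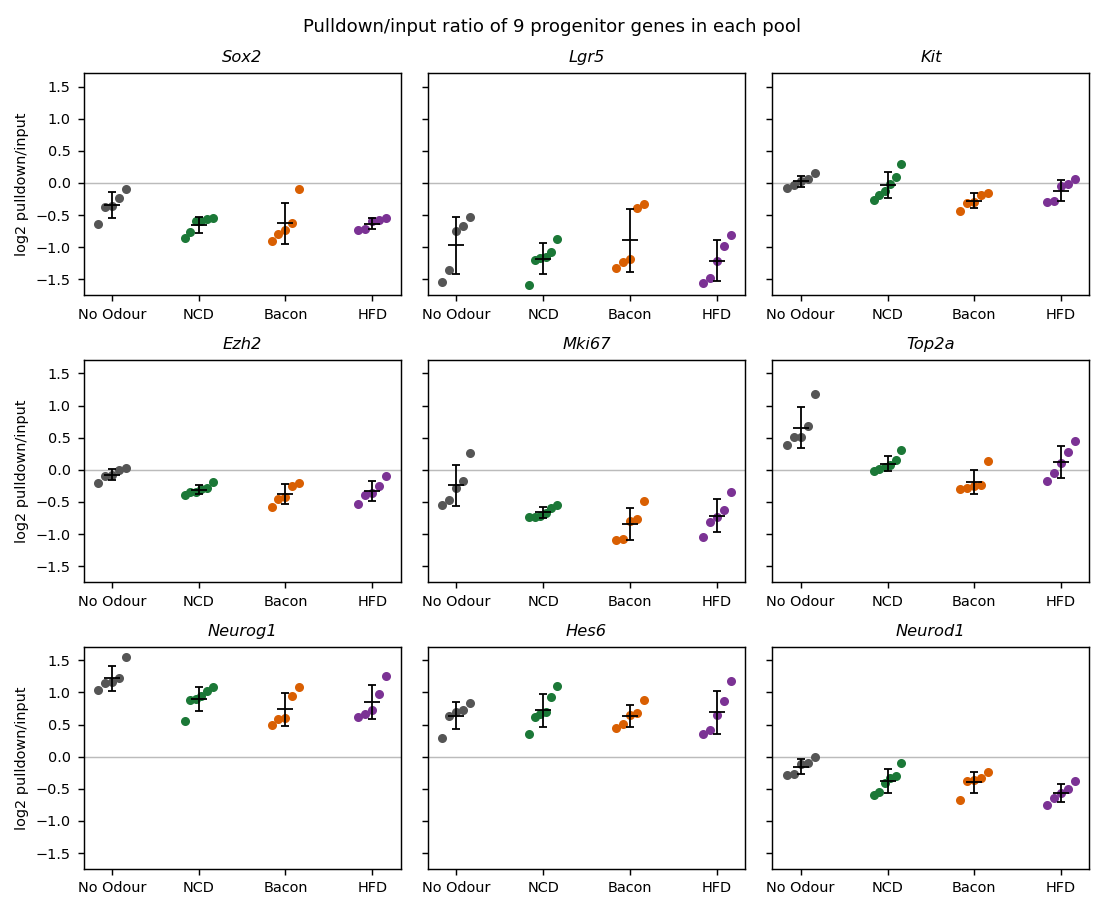
Log2 pulldown/input ratio in each of the 21 pools (points; prior count 2) for 9 genes, with the mean and SD of each odour group (5, 6, 5 and 5 pools). In Top2a the 5 No Odour pools sit at 0.39 to 1.18, above all NCD and Bacon pools; in Hes6 the 4 groups overlap.

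The Top2a log2 ratio was 0.51, 0.51, 0.69, 1.18 and 0.39 in the No Odour pools. It was -0.25, -0.31, -0.28, 0.13 and -0.24 in the Bacon pools and -0.17, -0.05, 0.11, 0.27 and 0.45 in the HFD pools. In the NCD pools it ran from -0.03 to 0.30 with a median of 0.05. The No Odour pools lay above all NCD and Bacon pools, and 1 HFD pool, replicate 6, reached into their range.

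The fitted difference was -0.64 (SE 0.106, adjusted p = 0.000122) for any odour and -0.84 (SE 0.130, adjusted p = 0.000116) for Bacon. NCD gave -0.56 (SE 0.125, adjusted p = 0.0056) and HFD -0.53 (SE 0.130, adjusted p = 0.00741), short of the threshold. The levels behind the ratio, on the TMM scale, were as follows. In the pulldown Top2a was at 28.3, 24.0, 26.1, 36.5 and 25.3 CPM with Bacon and at 30.5, 28.5, 28.1, 31.6 and 34.5 CPM with HFD, and ran from 26.4 to 30.6 CPM with NCD, all below the 36.7 CPM of the lowest No Odour pulldown. In the input it was at 33.6, 29.7, 31.7, 33.3 and 29.9 CPM with Bacon, above the 28.7 CPM of the highest No Odour input.

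Leaving out 1 pool at a time kept the call for any odour, at -0.71 to -0.51, and for Bacon, at -0.92 to -0.70, the smallest size in each being without No Odour replicate 4. The Bacon call was lost when the ribosomal RNA share entered the fit (-0.86, adjusted p = 0.00241) and in a fit of the 2 groups alone (-0.82, adjusted p = 0.00415), and the call for any odour held with that covariate (-0.65, adjusted p = 0.000366).

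Mki67 had the second largest value, -0.49 (SE 0.110, adjusted p = 0.00174) for any odour and -0.60 (adjusted p = 0.00256) for Bacon. It passed without Bacon replicate 1, the pulldown that stood apart, at -0.53 (adjusted p = 0.000411) for any odour and -0.69 (adjusted p = 0.000451) for Bacon, with DESeq2 (-0.49, adjusted p = 0.000220), and without HFD replicate 6. Without No Odour replicate 4 it was -0.37 (adjusted p = 0.0116). Neurog1 (-0.39, adjusted p = 0.0124), Neurod1 (-0.29, adjusted p = 0.013), Ezh2 (-0.27, adjusted p = 0.00828) and Sox2 (-0.30, adjusted p = 0.029) had intervals below 0 and missed the threshold. By library totals without TMM factors, which put the median of all genes at -0.17, Mki67 (-0.66, adjusted p = 0.000687), Neurog1 (-0.55, adjusted p = 0.000558), Neurod1 (-0.46, adjusted p = 0.000597) and Ezh2 (-0.43, adjusted p = 0.000352) passed for any odour. Kit (-0.17, 95% interval -0.37 to 0.03), Lgr5 (-0.13, -0.49 to 0.24) and Hes6 (0.04, -0.19 to 0.27) had intervals that held 0.

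The median of the 9 differences for any odour was -0.29, beside -0.01 over all genes tested, and 8 of 9 were below 0. The cell cycle lists had a like median. List counts in this comparison stand beside the 5.47% of all genes that passed. Of the 15 S phase genes 4 fell and none rose (median -0.37), and of the 18 genes of G2 and M phase 5 fell and none rose (median -0.37), with all 18 below 0. These 9 genes, named after their values were seen, were Uhrf1 (-0.69), Mcm3 (-0.65), Mcm6 (-0.59), Mcm4 (-0.47), Bub1b (-0.69), Tpx2 (-0.60), Kif11 (-0.40), Cenpe (-0.99) and Cdc20 (-0.69). Among the other lineage regulators 2 of 16 fell and none rose, with the receptor Notch1 at -0.51, and of the 9 Polycomb partners and the 9 genes around Kit and Lgr5 none passed. In the same comparison no marker of horizontal basal, sustentacular or erythroid cells passed. Markers that fell were 1 of 4 of immature neurons, 1 of 4 of macrophages and 1 of 3 of Bowman gland and duct cells, and those that rose were 1 of 5 of mature sensory neurons, 1 of 4 of microvillous cells and 2 of 4 of ensheathing glia.

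**Figure D3:**
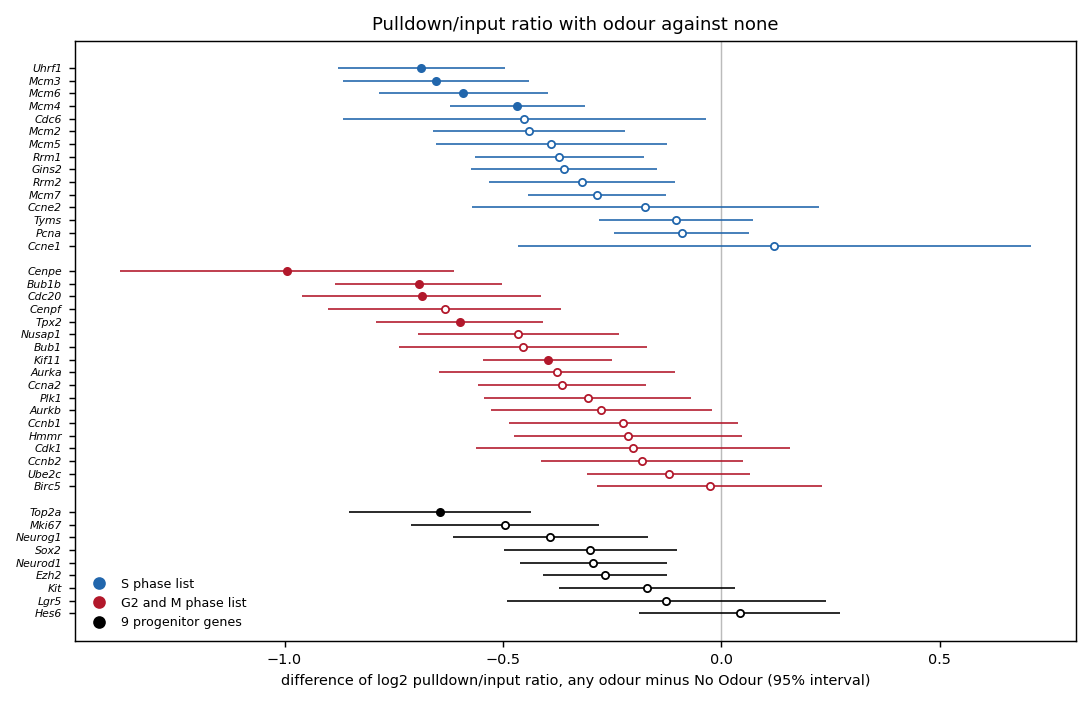
Difference of the log2 pulldown/input ratio, any odour minus No Odour, with 95% intervals, for 15 S phase genes (blue), 18 genes of G2 and M phase (red) and the 9 progenitor genes (black); filled points have an adjusted p under 0.001. Points lie below 0 for all G2 and M phase genes, for 14 of 15 S phase genes and for 8 of 9 progenitor genes.

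Transcript length moved with this measure over all genes (Spearman's rho -0.370 across 20951 genes), with medians of 0.23 for transcripts of 1805 bases or less and -0.20 for those of 4383 bases or more. Top2a (5221 bases), Mki67 (10061), Kit (5241) and Lgr5 (4793) are in the long group, and Neurog1 (1686) and Hes6 (1573) in the short one. With a length trend taken out of each library, an alternative added after the values were seen, Top2a was at -0.52 (adjusted p = 0.000267), Neurog1 passed at -0.54 (adjusted p = 0.000936), and Mki67 was at -0.17 (adjusted p = 0.0514).

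In the pulldown libraries alone, the levels of Neurog1, Neurod1, Ezh2 and Top2a were lower in each of the 16 libraries with odour than in each of the 5 without, a pattern that 1.96% of all genes showed. Neurod1 was at 18.0 to 19.3 CPM without odour and at 12.2 to 17.4 CPM with it, and Ezh2 at 27.8 to 31.2 CPM against 22.1 to 27.1 CPM. This rests on the scaling. By library totals without TMM factors the pattern was seen in Hes6 alone of the 9, beside 1.08% of all genes, so no direction is given for the pulldown levels.

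**Figure D4:**
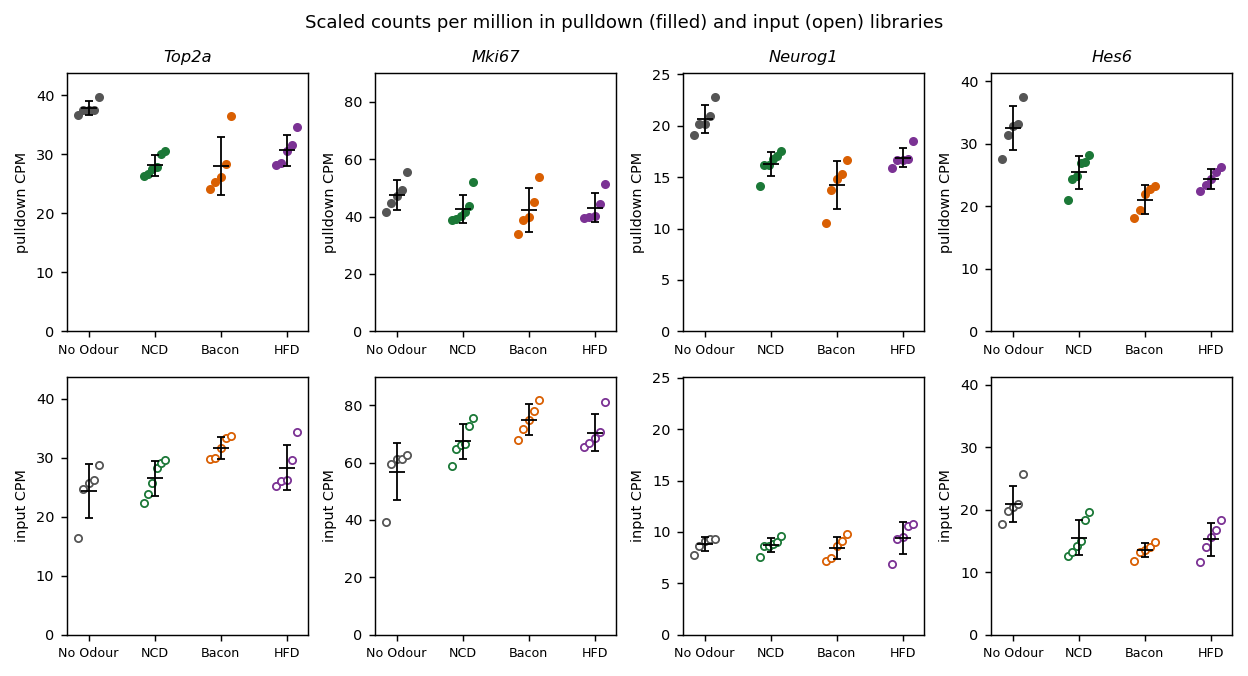
TMM-scaled CPM of Top2a, Mki67, Neurog1 and Hes6 in each pulldown (filled, top) and input library (open, bottom) by odour, with the mean and SD of each group; axes start at 0. On this scale, though not by library totals, the Top2a pulldowns without odour (36.7 to 39.7 CPM) lie above all others. The Hes6 inputs with Bacon (11.8 to 14.8 CPM) lie below those without odour.

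The third comparison asked whether the tissue itself differed, using the 21 inputs, which are also the denominators above. Hes6 passed as lower with odour, a call that several settings below did not keep, and none of the other 8 genes passed. For any odour 1 of 9 genes passed, beside 11.5% of all genes, and for Bacon 1 of 9, beside 13.1%. Neither count is above its share over all genes. For NCD and HFD none passed, beside 0.968% and 0.935%. At an unadjusted p under 0.05 they had 3 and 2 genes, again with no share of all genes counted.

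Hes6 was at 19.8, 20.9, 20.4, 25.7 and 17.7 CPM in the No Odour inputs. It was at 13.2, 14.8, 11.8, 13.6 and 14.1 CPM with Bacon, all below No Odour, at 16.8, 11.6, 15.6, 14.0 and 18.3 CPM with HFD, and from 12.6 to 19.6 CPM (median 14.6) with NCD. The log2 differences were -0.50 (SE 0.0975, adjusted p = 0.000375) for any odour, -0.63 (adjusted p = 0.000397) for Bacon, -0.43 (adjusted p = 0.0124) for NCD and -0.45 (adjusted p = 0.0124) for HFD.

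The Hes6 call was not stable. It was lost for any odour without No Odour replicate 2 (-0.51), 3 (-0.52) or 4 (-0.43), and for Bacon without Bacon replicate 1 (-0.63), 3 (-0.59) or 4 (-0.63) or No Odour replicate 4 (-0.56). It was also lost with the length trend taken out (-0.33 for any odour, adjusted p = 0.00252) and with library totals (-0.24, adjusted p = 0.0146), and when the ribosomal RNA share entered the fit it turned to 0.17 (adjusted p = 0.790). In that fit 7 of the 21168 genes passed for any odour in place of 2424. The share and the odour go together, since the lowest No Odour input had 19.2% and the highest input with odour 18.9%.

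Mki67 lay on the other side, at 75.0, 71.7, 81.8, 78.2 and 68.0 CPM with Bacon and 66.7, 81.2, 70.5, 68.7 and 65.3 CPM with HFD, all above the 62.7 CPM of the highest No Odour input. Its log2 differences of 0.32 (adjusted p = 0.00322) for any odour and 0.40 (adjusted p = 0.00224) for Bacon missed the threshold. Both passed with DESeq2, at 0.31 (adjusted p = 0.000770) and 0.39 (adjusted p = 0.000562), and by library totals without TMM factors, at 0.56 (adjusted p = 0.000103) and 0.70 (adjusted p = 6.33e-05), a scaling that put the median of all genes at 0.25. The value for any odour was 0.20 without No Odour replicate 4, 0.02 with the length trend taken out and -0.08 when the ribosomal RNA share entered the fit. Top2a was at 0.24 (adjusted p = 0.047) for any odour and 0.38 (adjusted p = 0.00946) for Bacon, and by library totals the Bacon value was 0.68 and passed (adjusted p = 0.000192). Sox2 (95% interval -0.14 to 0.09), Ezh2 (-0.10 to 0.10) and Neurog1 (-0.16 to 0.17) had intervals around 0, Neurod1 was at -0.10 (-0.22 to 0.02), Kit at -0.13 (-0.28 to 0.03) and Lgr5 at 0.18 (0.03 to 0.33), which by library totals was 0.43 and passed (adjusted p = 0.000371).

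Over all genes, the input difference for any odour was correlated with transcript length (Spearman's rho 0.415), with medians of -0.22 in the short group, which holds Hes6, and 0.16 in the long one, which holds Mki67. The list counts that follow stand beside the 11.5% of all genes that passed in this comparison. Of the 9 genes around Kit and Lgr5, 4 rose and none fell. They were Znrf3, which removes Wnt receptors (0.34), Lgr4, a further R-spondin receptor (0.25), Axin2, a Wnt target (0.27), and, named after its value was seen, Kitl (0.30). Of the 16 other lineage regulators 1 rose and 1 fell, the latter Cxcr4, a chemokine receptor (-0.36), and Insm1, a factor of the precursors, was at -0.41 (adjusted p = 0.00109). Of the Polycomb partners Mtf2 rose (0.29), and Jarid2 (0.21) and Rbbp4 (-0.13) did not pass. No S phase gene passed, the nearest being Mcm4 (0.14), Tyms (0.12) and Mcm5 (-0.21), and in G2 and M phase Cenpf rose (0.41), Birc5 fell (-0.45) and Cenpe did not pass (0.63).

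The odours were then set against each other. None of the 9 genes passed in any of the 6 comparisons, in the ratio (0.00945%, 0.0236% and 0.0378% of all genes for Bacon over NCD, HFD over NCD and HFD over Bacon) or in the input (0.104%, 0.0567% and 0.0803%). At an unadjusted p under 0.05 there were 8 of the 54 values, with no share of all genes counted at that level, and DESeq2 called none. The Top2a ratio was -0.28 (95% interval -0.52 to -0.04) for Bacon over NCD, 0.03 (-0.22 to 0.27) for HFD over NCD and 0.31 (0.05 to 0.56) for HFD over Bacon. The Neurog1 ratio was -0.16 (-0.42 to 0.11), -0.05 (-0.31 to 0.22) and 0.11 (-0.17 to 0.38). The Lgr5 intervals were wide, from -0.77 to 0.10 for HFD over Bacon.

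Within an odour group the pools also differed, and the 9 genes differed in what they moved with. Because Bacon replicate 1 stood apart in supporting cell markers, the level of each gene in the pulldown was set against the summed sustentacular markers of the same pulldown, and its level in the input against the ribosomal RNA share of the same input, a choice made after the values were seen. Both were taken as deviations from the odour mean over 21 pools, with permutation tests within odour groups (100000 draws, two-sided) adjusted over the 18 relations and a threshold of 0.05 on the adjusted p.

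Mki67 in the pulldown followed the sustentacular markers most closely (Pearson's r = 0.944, permutation p = 1e-05, the smallest these draws can give, and 0.00018 adjusted, and Spearman's rho = 0.862, adjusted permutation p = 0.00054). The pulldown with the most sustentacular RNA was the one with the most Mki67 in all 4 odour groups. Lgr5 went the same way (r = 0.779, adjusted permutation p = 0.00306, and rho = 0.795, adjusted permutation p = 0.00378), and Hes6 (r = -0.804, adjusted permutation p = 0.00216, and rho = -0.729, adjusted permutation p = 0.00495) and Neurog1 (r = -0.756, adjusted permutation p = 0.0121, and rho = -0.661, adjusted permutation p = 0.0182) went the opposite way. Without the 2 pools farthest out, Bacon replicate 1 and NCD replicate 2, r was 0.905, 0.756, -0.697 and -0.668. The horizontal basal markers were not set against the genes. In Bacon, NCD and No Odour they were highest in the same pulldown as the sustentacular markers, and in HFD they were not.

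Top2a had r = 0.626 (adjusted permutation p = 0.0535) and rho = 0.763 (adjusted permutation p = 0.00387), and so passed by rho and not by r. Sox2 (r = 0.306, adjusted permutation p = 0.534), Kit (r = 0.240, adjusted permutation p = 0.308), Ezh2 (r = 0.535, adjusted permutation p = 0.103) and Neurod1 (r = 0.561, adjusted permutation p = 0.0671) did not pass.

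In the inputs Hes6 followed the ribosomal RNA share within the odour groups (r = 0.810, adjusted permutation p = 0.00036, and rho = 0.808, adjusted permutation p = 0.00117, and 0.793 without HFD replicate 6 and No Odour replicate 6). Mki67 went against it (r = -0.651, adjusted permutation p = 0.0326, and rho = -0.727, adjusted permutation p = 0.00495, and -0.655 without the same 2 pools). The other 7 genes did not pass, with r from -0.558 (Lgr5) to 0.362 (Neurog1) and adjusted permutation p of 0.0535 or more. The values of a pair share a library and its scaling, and the part of supporting cell RNA in the odour differences was not tested.

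**Figure D5:**
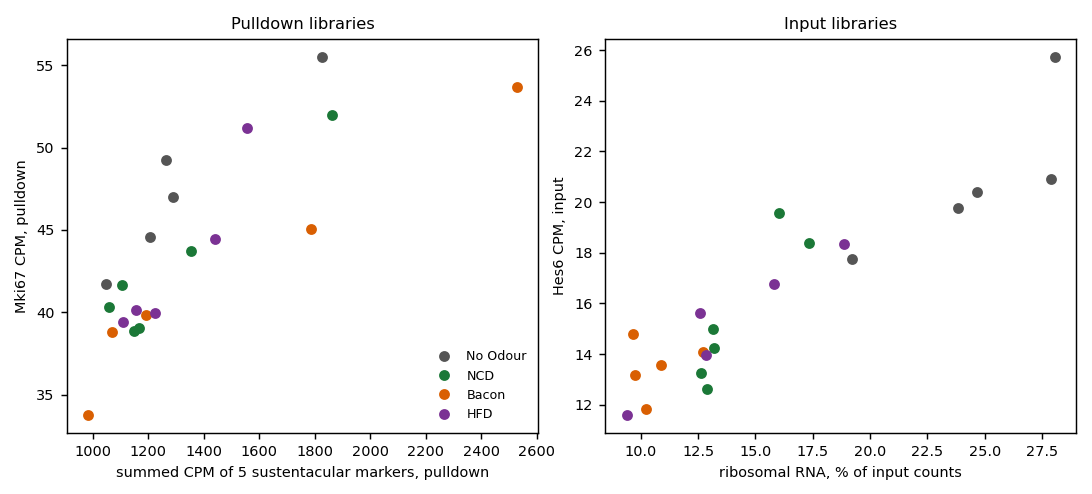
Left, Mki67 CPM in each of 21 pulldowns against the summed CPM of 5 sustentacular markers in the same library; right, Hes6 CPM in each of 21 inputs against the percent of its counts on ribosomal RNA. Colours mark No Odour (grey), NCD (green), Bacon (orange) and HFD (purple), and the 5 No Odour inputs lie at the right (19.2% or more). The correlations in the text pool deviations from the odour mean and do not mean a relation in each group. In Bacon the highest Hes6 (14.8 CPM) was in the input with the lowest share (9.66%).

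The genes whose input levels moved most like each member, by Pearson's r of log2 deviations from the odour mean over the 21 inputs, were none of them in the lists above. They were Magi3 (0.97) and Ncor1 (0.96) for Mki67, Gm20518 (0.96) and Ddx46 (0.95) for Top2a, and Syngr2 (0.95) and Rogdi (0.93) for Hes6. The closest for the others were Galnt17 (0.86) and Atg9a (0.85) for Neurog1, Slc35a5 (0.87) and Vbp1 (0.85) for Neurod1, Klhl28 (0.87) and Sirt6 (0.86) for Kit, Ctps2 (0.86) and Bmt2 (0.86) for Ezh2, Rabgap1 (0.82) and Nupl2 (0.81) for Lgr5, and Gspt1 (0.82) and Map7d1 (0.81) for Sox2. Among the members themselves Mki67 and Top2a had the highest r (0.79) and Mki67 and Hes6 the lowest (-0.72). These are descriptions over libraries that share depth and preparation.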

How the data were processed

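Total RNA of the input and the RNA of the phospho-S6 pulldown were measured in 42 libraries from 21 pools. Per the study's methods, the authors made libraries with Ovation and Nextera XT kits, ran the nf-core pipeline and quantified genes with Salmon on GRCm38. The deposited values are expected counts (30.9% are not whole), rounded here. The 556 rows without a gene name held 0.525% of the counts. They stayed in and went through the same filter, scaling and adjustment as the named genes.

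The 9 members and all lists were chosen with earlier results of these data known. Genes were filtered with edgeR 4.0.16 (R 4.3.3; filterByExpr, minimum count 10 over 8 groups), scaled with TMM and tested with edgeR's robust quasi-likelihood test, two-sided, with Benjamini-Hochberg adjustment over 21168 genes and the study's threshold of 0.001 on the adjusted p. One fit over 42 libraries had a term for each pool and a pulldown term for each odour. A second fit used the 21 inputs. Any odour is the mean of the 3 odours. Log2 ratios of single pools carry a prior count of 2. Alternatives were DESeq2 1.42.0, limma 3.58.1, other scalings, filters, covariates and blocks, a transcript length offset added after seeing the data, and leaving out each pool. Scripts were tested on simulated data.

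Named besides the members are the up to 3 genes of each pathway list with the smallest p without odour and likewise in the inputs for any odour, and the 2 genes most like each member. A gene that this rule names is not reported here, and the counts of its list include it. Replicates are separate pools of 4 epithelia, and the pulldown and input of a pool were paired because the study's methods divide one by the other. Their deviations from the odour mean had a median r of 0.0142 (-0.0792 to 0.211, 21 pools). No 2 libraries of a group agreed within sampling noise. Common dispersion gave a biological coefficient of variation of 12.0% over all libraries and 11.7% over the inputs.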

Additional observations from a re-analysis of the deposited data

Results flagged for a closer look

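In 7 of 108 groups of values (9 genes, 4 odours and 3 measures) the highest or lowest library lay further from the rest than Dixon's 95% limit allows, where chance would give about 1 in 20, or 5.4. Kit was at 5.62 CPM in the No Odour replicate 4 pulldown, against a median of 7.20 CPM in the other 4. Top2a was at 39.7 CPM in the No Odour replicate 3 pulldown, against 37.5 CPM. Mki67 was at 39.4 CPM in the No Odour replicate 4 input, against 61.4 CPM, and that library also had the highest share of ribosomal RNA, 28.1%. Sox2 was at 17.8 CPM in the Bacon replicate 1 pulldown, against 12.6 CPM, and that library had the most horizontal basal and sustentacular marker RNA of the 21 pulldowns. Mki67 was at 52.0 CPM in the NCD replicate 2 pulldown, against 40.3 CPM. Ezh2 was at 33.8 CPM in the NCD replicate 2 input, against 30.5 CPM. The Top2a log2 pulldown/input ratio was 0.13 in Bacon replicate 4, against -0.27 in the other 4.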

How the results depend on the processing

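Counts here are members past the threshold, of 9. The share of all genes past it under each setting is not given beside them. A larger or smaller count may therefore reflect the setting, and the counts are not read as a result about the 9 genes. A threshold of 0.05 gave 2 for the NCD, 4 for the Bacon, 3 for the HFD and 6 for the any-odour ratio over No Odour, and 1, 5, 2 and 3 in the inputs. DESeq2 gave 1, 2 and 2 for the NCD, Bacon and any-odour ratio, and 2 and 2 for the Bacon and any-odour inputs. Library totals without TMM factors put the median of all genes at -0.17 in the any-odour ratio and 0.25 in the inputs, and gave 4 and 5 for the Bacon and any-odour ratio and 3 and 2 for the inputs. The length offset gave 2 for the any-odour ratio and 0 for the Bacon and any-odour inputs. A ribosomal RNA covariate gave 0 for the Bacon ratio and 0 for both inputs, with Hes6 turning to 0.24 for Bacon and 0.17 for any odour. A fit of only the groups compared gave 0 for the Bacon ratio and 3, in place of 7, for the Bacon pulldown over input. The replicate number as a block gave 0 for the Bacon and any-odour inputs and moved no other count by over 1.5 times. Numbers did not pair pools across odours (median r of deviations 0.0200 in inputs and 0.00919 in pulldowns, 27 pairs each). Leaving out 1 pool at a time gave 1 to 2 for the Bacon and any-odour ratio, 0 to 1 for the Bacon and any-odour inputs, 4 to 5, 7 to 7, 6 to 7 and 6 to 7 for the No Odour, NCD, Bacon and HFD pulldown over input, and 0 elsewhere. Of 3402 values without 1 pool 3387 kept their side of the threshold and none called turned, and of 1800 under other settings 1732 did and 2 turned. The cause of these changes was not tested. Depth limits Lgr5 most, with 55 to 179 counts in a pulldown.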
